A study of Rattus norvegicus with 18 samples.

Results

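The presynaptic release machinery and the synaptotagmins were followed here as a list of 51 gene symbols, which matched 52 of the 32623 gene identifiers in the tables, since Sytl2 is listed under 2 identifiers that were kept apart. Members were found in the tables by their symbol alone, from a list drawn up with earlier results of these data known. RNA-seq read their expression in the prefrontal cortex (PFC) of 18 Sprague Dawley rat pups at post-natal day 14 (P14), with 6 pups in each of 3 groups. Dams of the SAL group received saline. Dams of the PNO group were gavaged with the opioid oxycodone (oxy) at 15 mg/kg/day from parturition onward, so that the pups met the drug after birth, by way of the breastmilk. In the IUO group, dams received 10 mg/kg/day for 5 days, then steps of 0.5 mg/kg/day over 10 days to 15 mg/kg/day, and were treated through mating, gestation and lactation, so that their pups met it in utero and after birth. The dams of all groups were gavaged, and pups were chosen at random within a group. The labels name neither the litter nor the sex of a pup, so p-values measure the spread between these pups, some of which may share a dam.

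At a presynaptic terminal, transmitter is loaded into vesicles, the vesicles are docked and primed at the active zone, and calcium entry triggers their fusion. Fusion is driven by the SNARE proteins of the vesicle (synaptobrevins, encoded by Vamp1 and Vamp2) and of the plasma membrane (syntaxin and SNAP25). Synaptotagmins sense the calcium, complexins hold and help the SNARE complex, and NSF with its SNAP adaptors takes the spent complex apart. In cortex many of these genes are expressed in most neurons, but individual paralogs mark particular cells: Syt2 and Vamp1 are prominent in fast-spiking parvalbumin interneurons, and Slc17a6 marks thalamic input neurons more than cortical ones.

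Expected counts summed to between 18381819 and 26084780 per pup, of which the members took between 1.11% and 1.51%. The mitochondrial share of counts ranged from 6.96% to 16.3%. It was lowest, at 6.96% to 8.39%, in 4 pups, IUO 5, SAL 6, PNO 1 and PNO 5, and 9.44% or more in all others. SAL 6 stood apart from the other pups, with the highest value of 18.4% and the lowest value of 16.8% of the genes tested. Markers of cortical excitatory neurons were present in every pup (summed level of 8 genes 317 to 761 CPM), but so were those of striatum (8 genes, 163 to 1909 CPM), thalamus (6 genes, 50.2 to 202 CPM) and choroid plexus (6 genes, 3.86 to 976 CPM), and no marker of these lists was at 0 in all pups of a group.

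Levels between genes were compared as TPM, which is scaled to gene length. Of the 52 identifiers, 18 had a mean of at least 100 TPM, 20 lay from 10 to 100, 10 from 1 to 10 and 4 below 1. The most abundant was Syp, which encodes synaptophysin of the vesicle membrane, at 1077 ± 160 TPM (SD, n = 18). It was followed by Snap25 (886 ± 133), Vamp2 (873 ± 74.3), the vesicular glutamate transporter Slc17a7 (786 ± 172) and Rab3a, the small GTPase of vesicle docking (716 ± 61.5). Snap25 and Vamp2 differed by less than their spread. The order therefore opened with 1 vesicle protein, 2 SNARE genes, the glutamate loader and a docking GTPase, each in the same order of magnitude.

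**Figure D1:**
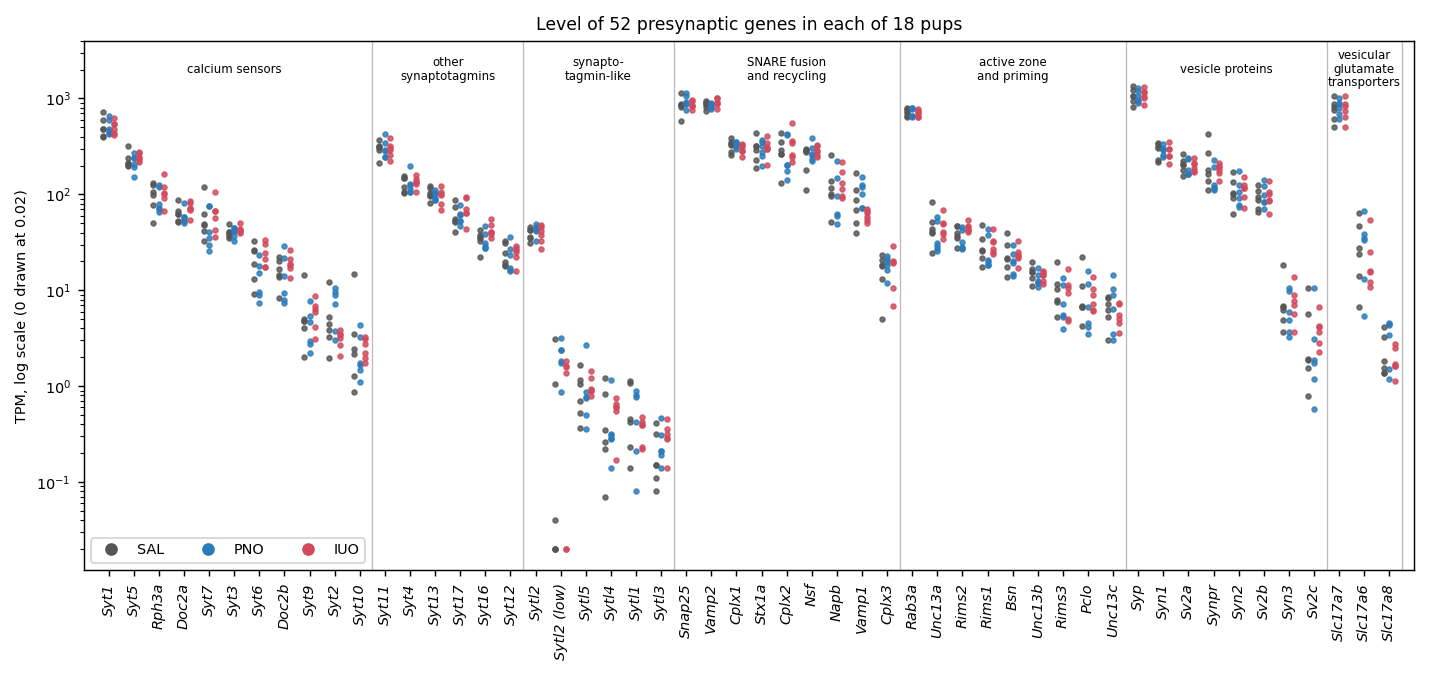
TPM on a log axis for each of the 52 identifiers, ordered by role and then by mean. Each point is 1 pup and colour gives the group. The groups lie over each other for the abundant genes, from Syp at 1077 TPM downward. The pups of a group spread widely for Slc17a6 and for low members such as Sv2c and the second Sytl2 identifier.

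Among the calcium sensors, Syt1, the main fast sensor of forebrain neurons, was the highest. In SAL its level ran from 393 to 725 TPM with a median of 480, in PNO from 425 to 659 with a median of 468, and in IUO from 415 to 624.7 with a median of 507. The 3 ranges overlapped almost wholly. The other fast sensors were rare beside it: Syt1 made up 98.0% ± 0.675 (SD, n = 18) of the summed TPM of Syt1, Syt2 and Syt9. Syt5 (231 TPM), Rph3a (98.0 TPM), Doc2a (64.9 TPM) and Syt7, the slow sensor of asynchronous release (55.9 TPM), came next, and Syt2 (5.15 TPM) and Syt10 (2.97 TPM) were the lowest.

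The other synaptotagmins, here Syt4, Syt11, Syt12, Syt13, Syt16 and Syt17, were led by Syt11, which does not bind calcium, with a mean of 301 TPM. Its range was 210 to 371 TPM in SAL (median 309), 242 to 421 in PNO (median 288) and 223 to 388 in IUO (median 296), again with nearly complete overlap. Syt4 followed at 131 TPM and Syt13 at 98.7 TPM, and Syt12 was the lowest at 23.7 TPM.

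The synaptotagmin-like genes encode effectors of Rab27 in secretory cells, and all but 1 of the identifiers had means near or below 1 TPM. The exception was the first Sytl2 identifier (ENSRNOG00000030776), at 31.0 to 45.9 TPM in SAL (median 38.9), 32.8 to 49.3 in PNO (median 43.2) and 27.0 to 48.5 in IUO (median 39.4). Sytl5 (0.978 TPM), Sytl4 (0.489 TPM), Sytl1 (0.487 TPM) and Sytl3 (0.255 TPM) were far lower. Sytl3 was the only member that failed the filter on low counts, with 3 to 13 counts in SAL, 4 to 15 in PNO and 5 to 14 in IUO, so that 51 identifiers were tested.

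The second Sytl2 identifier (ENSRNOG00000049878) was read in an on and off pattern. Its count stayed under 1 in 4 of 6 SAL pups, in 0 of 6 PNO pups and in 2 of 6 IUO pups. In the pups of SAL it ran from 0 to 54.8 counts (median 0.240), in PNO from 13.9 to 38.8 (median 30.7) and in IUO from 0 to 31.4 (median 21.7). The highest single value was in SAL 4, so the SAL range covered that of PNO. Of the counts given to the 2 identifiers together, it held 1.10% in SAL, 2.49% in PNO and 1.5% in IUO, and a read that fits both can be divided between them, so each value is uncertain.

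SNARE and recycling genes had the densest set of abundant members. Snap25 ran from 587 to 1129 TPM in SAL (median 862), 767 to 1148 in PNO (median 905) and 759 to 965 in IUO (median 840). Stx1a, the plasma membrane syntaxin, had a mean of 301 TPM, and Nsf, the ATPase that disassembles the complex, 268 TPM. Of the synaptobrevins, Vamp2 was the higher in all pups, since Vamp1 exceeded it in 0 of 18, and it ran from 735 to 940.4 TPM in SAL, 776 to 908 in PNO and 781 to 1015 in IUO. Vamp1 made up 9.16% ± 4.47 (SD, n = 6) of their summed TPM in SAL, 11.3% ± 3.44 in PNO and 6.28% ± 1.27 in IUO.

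Most complexin transcript came from 2 genes. Cplx1 was the highest of the 3 in 10 of 18 pups and Cplx2 in the others, while Cplx3 stayed at 2.93% ± 1.18 (SD, n = 18) of their sum. Cplx1 held 52.2% ± 5.93 (SD, n = 6) in SAL, 56.0% ± 10.1 in PNO and 47.2% ± 5.85 in IUO. Cplx2 varied more than Cplx1, at 132 to 440.2 TPM in SAL, 140.2 to 428 in PNO and 218 to 558 in IUO, against 246 to 384 TPM for Cplx1 over the 18 pups. Cplx3 stood at 5.05 to 23.6 TPM in SAL, 11.99 to 22.9 in PNO and 6.86 to 29.2 in IUO.

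At the active zone, Rab3a far exceeded the scaffolds and priming factors. It ran from 637 to 801 TPM in SAL (median 730), 645 to 800 in PNO (median 718) and 640.45 to 777 in IUO (median 710). The priming factor Unc13a had a mean of 43.7 TPM and was the highest of its family in 18 of 18 pups, with 66.8% ± 5.73 (SD, n = 18) of the family sum. Rims2, a scaffold that tethers calcium channels and vesicles, had 39.5 TPM and Rims1 28.7 TPM, and the large scaffolds Bsn and Pclo had 22.6 and 8.70 TPM.

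Among vesicle proteins, Syp ran from 813 to 1340 TPM in SAL (median 1058), 890 to 1272 in PNO (median 1019) and 845 to 1329 in IUO (median 1120). The synapsins, which tether vesicles in the reserve pool, kept a fixed order: Syn1 took 71.1% ± 5.03 (SD, n = 18) of the family sum, Syn2 27.2% ± 4.53 and Syn3 1.76% ± 0.652. By group, in the order SAL, PNO and IUO, Syn1 averaged 289.8 ± 54.4, 287 ± 31.3 and 276 ± 51.02 TPM (SD, n = 6), and Syn2 110.4 ± 36.9, 109 ± 38.4 and 113 ± 27.1 TPM. The SV2 glycoproteins were likewise led by Sv2a in 18 of 18 pups, at 66.9% ± 3.24, with Sv2b at 32.0% ± 3.15 and Sv2c at 1.13% ± 0.750. Sv2a averaged 205 ± 36.5, 190.1 ± 36.1 and 198 ± 25.6 TPM in SAL, PNO and IUO (SD, n = 6). The groups of these vesicle genes differed by less than 1 SD.

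Slc17a7, the cortical glutamate transporter of vesicles, was the highest of its family in 18 of 18 pups, with 95.9% ± 2.89 (SD, n = 18) of the sum. It ran from 501 to 1073 TPM in SAL (median 781), 609 to 1016 in PNO (median 830) and 506 to 1060 in IUO (median 785). Slc17a6 ran from 6.73 to 63.5 TPM in SAL (median 25.5), 5.39 to 66.9 in PNO (median 34.4) and 10.8 to 53.4 in IUO (median 15.6), a wide and overlapping spread inside every group. Slc17a8, found in few neurons, stayed at 1.13 to 4.56 TPM.

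The spread of a member between pups of a group limits what change could be seen. edgeR's biological coefficient of variation, the between-pup SD as a share of the level, had a median of 0.239 over the tested members and 0.18 over all 15703 genes tested, and 35 of the 51 lay above the latter. It was smallest for Sv2a (0.104), Rab3a (0.108), Vamp2 (0.109) and Cplx1 (0.113). It was largest for the second Sytl2 identifier (1.48), followed by Sv2c (0.671) and Slc17a6 (0.657). Sv2a varied 1.29-fold in CPM from its lowest to its highest pup, and Sv2c 14.3-fold.

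Part of that spread ran along single pups. SAL 6 had the highest CPM of 12 of 52 members (23.1%), beside 18.4% of all genes tested, and these were Pclo, Bsn, Rims1, Rims3, Unc13a, Syt7, Syt9, Syt10, Sytl4, Synpr, Syn3 and Napb. It also had the lowest CPM of 5 of 52 members, beside 16.8% of all genes tested, and these were Vamp1, Cplx3, Syt3, Rab3a and first Sytl2. Syt10 read 14.1 CPM in SAL 6 and at most 4.40 in every other pup. Members exceeded the share of all genes by more in other pups, among them SAL 1, SAL 5 and IUO 2. SAL 1 was lowest for 8 of 52 members (4.73% of all genes tested) and highest for 0. These were Snap25, Syt1, Syn1, Slc17a7, Stx1a, Syt4, Unc13b and, tied at 0, second Sytl2. SAL 5 was highest for 6, with Syp, Stx1a and Syn1 (3.62% of all genes), and lowest for 3. IUO 2 was lowest for 7, with Syp and Syn2 (4.59%), and highest for 2. SAL 4, with the highest mitochondrial share, had the lowest Cplx2, Rph3a, Nsf, Syt10, Sytl3, Unc13a, Syt9 and Syt16 (15.4% of members, 7.78% of all genes tested) and the highest Unc13b, Sytl1, Syt3 and second Sytl2 (7.69% and 8.06%).

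The 4 pups of lowest mitochondrial share, which come from all 3 groups, held at least 3 of the 4 highest values for 16 of 52 members (30.8%), beside 16.6% of all genes tested. For Cplx2, Rims1, Syt7 and Syn3 they held all 4. Napb, a SNAP adaptor of NSF, read 148 CPM in SAL 6, 139 in PNO 1, 136 in IUO 5 and 96.2 in PNO 5, against 39.0 to 117 in the other pups. The part of the mitochondrial share in these values was not tested.

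**Figure D2:**
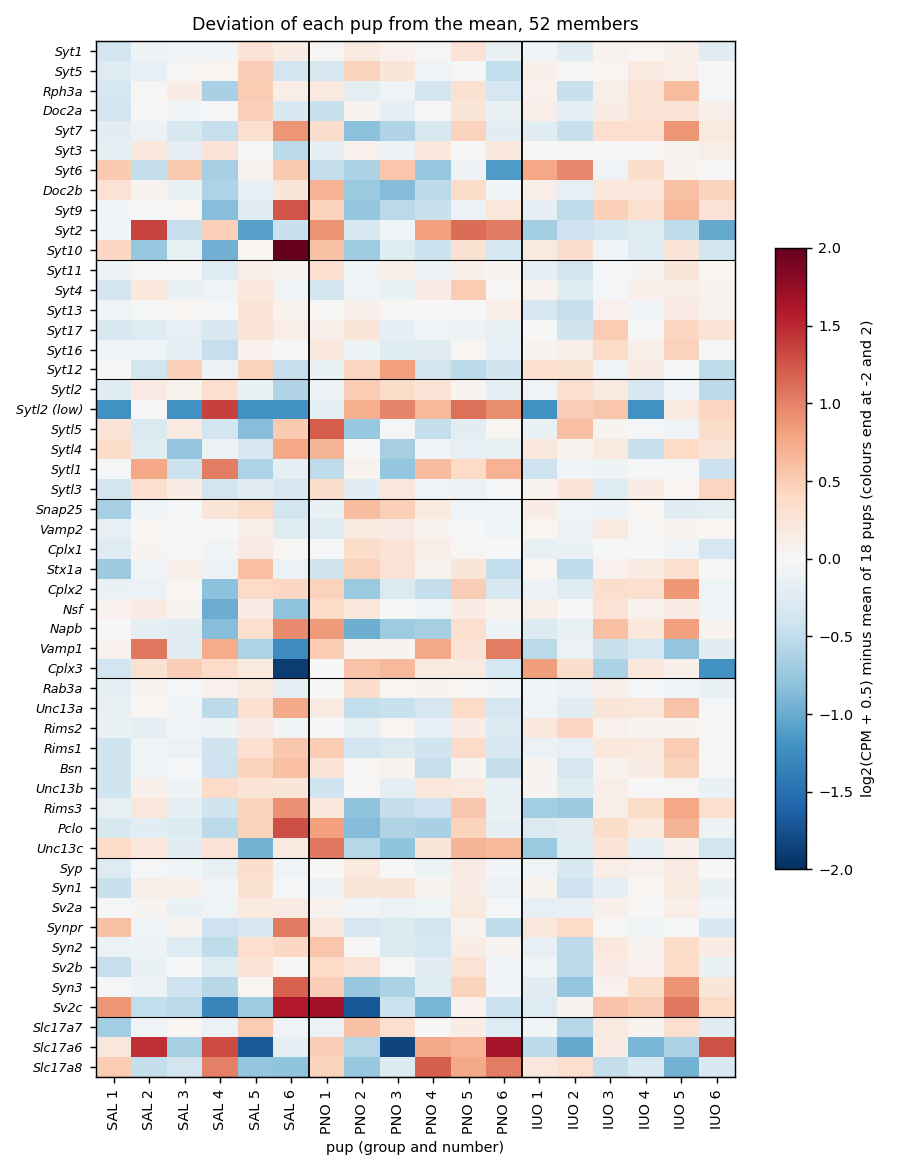
Deviation of each pup from the mean of the 18 pups in log2(CPM + 0.5), for 52 members ordered by role, with black lines between groups and roles. Columns SAL 6, PNO 1, PNO 5 and IUO 5 are red over many of the same rows, such as Napb and Pclo, and no group forms a block of its own across the rows.

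The first comparison asked what exposure after birth alone did to these genes. Between PNO and SAL, 0 of 51 members passed an adjusted p of 0.05 in edgeR's quasi-likelihood test with Benjamini-Hochberg adjustment (0% of all genes tested), and 0 passed an unadjusted p of 0.05, where 4.5% of all genes tested did. DESeq2 and limma-voom also called 0 members, where they called 0.00637% and 0% of all genes tested. The smallest adjusted p of a member was 0.912. The members' median log2 fold change was 0.04, beside 0.00328 over all genes, with 29 higher in PNO and 22 lower.

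By role, the SNARE and recycling genes had 7 of 9 members higher in PNO than SAL, the other synaptotagmins 6 of 6, the vesicular glutamate transporters 3 of 3, the synaptotagmin-like genes 3 of 5, the vesicle proteins 4 of 8, the calcium sensors, which include Syt6, Syt7 and Syt10, 4 of 11 and the active zone genes 2 of 9, beside 50.8% of all genes tested. In the same comparison 7 of 7 myelin markers (median 0.69) and 6 of 6 of choroid plexus (median 0.61) were higher and 8 of 8 striatal markers lower (median -0.32), of which 1, the myelin gene Mog, passed an unadjusted p of 0.05, and the part of these in the values of the members was not tested. None of the members passed the test, and the differences were small for the abundant genes: Snap25 had a log2 fold change of 0.25 (SE 0.16), Syt1 0.09 (SE 0.10), Syp 0.06 (SE 0.10) and Rab3a 0.08 (SE 0.08). The largest values belonged to rare or scattered genes, 1.45 for the second Sytl2 identifier (SE 0.99) and -0.72 for Syt10 (SE 0.48). Single pups moved both: without SAL 4 the former was 3.32 (unadjusted p = 0.00486, adjusted p = 0.589 in edgeR), and without SAL 6 the latter was 0.15. In the other settings the former ran from 1.17 to 3.72, the highest in limma-voom. Without SAL 6 the log2 fold changes of 13 members changed sign and 39 of 52 members tested were higher in PNO, beside a median of 0.0109 over all genes. Both counts were the largest with any 1 pup left out in this comparison.

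The second comparison asked what exposure in utero and after birth did. Between IUO and SAL, 0 of 51 members passed the adjusted p in edgeR (0% of all genes tested), and 2 of 51 (3.92%) passed an unadjusted p of 0.05, where 6.88% of all genes tested did. The difference of these shares was not tested. DESeq2 and limma-voom also called 0 members by adjusted p, where they called 0.312% and 0.274% of all genes tested. The median log2 fold change was 0.05 (all genes -0.00735), with 31 members higher in IUO and 20 lower. With 1 pup left out, the members higher in IUO went from 21 of 52 (without IUO 5) to 35 of 52 (without SAL 5). Without IUO 5 the log2 fold changes of 13 members changed sign.

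The 2 genes were Syt16 and Rims2. Syt16, a synaptotagmin without calcium-binding residues, ran from 27.6 to 40.6 CPM in SAL (median 36.1), from 32.0 to 44.8 in PNO (median 34.7) and from 37.0 to 52.6 in IUO (median 42.0). In IUO 4 of 6 pups lay above the highest SAL pup, and the ranges overlapped. Its log2 fold change against SAL was 0.31 (SE 0.11, unadjusted p = 0.0101, adjusted p = 0.537 in edgeR).

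Rims2 ran from 115 to 146 CPM in SAL (median 124), 107 to 144 in PNO (median 124) and 130 to 176 in IUO (median 137). Here 2 of 6 IUO pups exceeded every SAL pup, and the ranges overlapped. Its log2 fold change was 0.20 (SE 0.09, unadjusted p = 0.0314, adjusted p = 0.673 in edgeR). Against SAL, Syt16 kept an unadjusted p under 0.05 in 21 of 21 alternative settings and Rims2 in 16, and neither passed the adjusted p in any. Syt2 and Vamp1 were lower in IUO than SAL by log2 fold changes of -0.75 (SE 0.36) and -0.57 (SE 0.30), and neither passed an unadjusted p of 0.05 in edgeR, although Syt2 did in 7 and Vamp1 in 4 of the 21 alternative settings. Markers moved here too. Of the 7 myelin markers 7 were lower (median -0.60), as were 6 of 6 of choroid plexus (median -0.61), and 8 of 8 striatal (median 0.50) and 8 of 8 cortical excitatory markers (median 0.23) were higher, none past an unadjusted p of 0.05. Of the 6 interneuron and 6 pan-neuronal markers 3 and 4 were higher, while Pvalb had a log2 fold change of -1.55 (unadjusted p = 0.00124, adjusted p = 0.343 in edgeR), Nefl -0.25 (unadjusted p = 0.0333) and Nefm -0.35 (unadjusted p = 0.0182), and their part in these values was not tested.

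**Figure D3:**
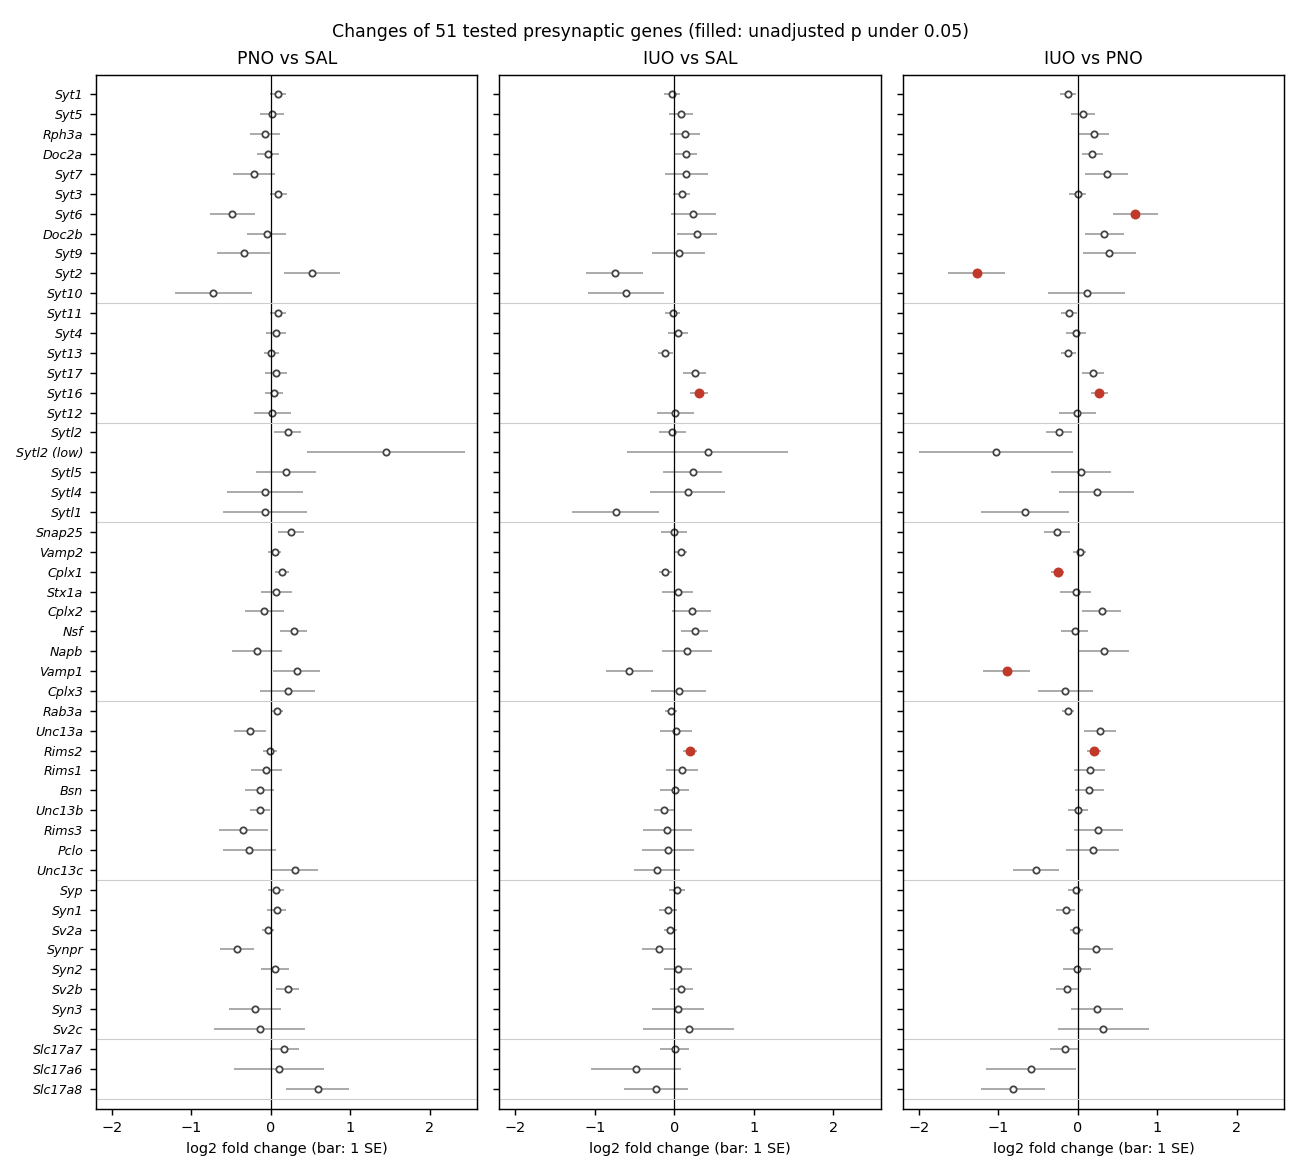
Log2 fold change with 1 SE for the 51 tested members in each comparison, grouped by role, positive where the first group named is higher. Filled points have an unadjusted p under 0.05, which is the case for 0, 2 and 6 members from left to right, and none passed the adjusted p in edgeR.

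The third comparison set the groups with and without exposure before birth against each other, both of which received oxy after birth. Between IUO and PNO, 0 of 51 members passed the adjusted p in edgeR, where 10 genes (0.0637%) of all tested did. At an unadjusted p of 0.05 there were 6 of 51 members (11.8%), where 15.3% of all genes tested passed, a difference that was not tested. With limma-voom the shares were 39.2% of the members and 34% of all genes, and on the 14 pups 29.4% of both. Of the 6, 3 were lower in IUO, Syt2, Vamp1 and Cplx1, and 3 were higher, Syt6, Syt16 and Rims2. The median over members was -0.00252 (all genes -0.000528), with 25 higher and 26 lower. The comparison shares the IUO pups with the one against SAL and the PNO pups with the first, so the 3 sets of values are not independent.

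Syt2, the fast calcium sensor of synapses that fire at high rates, ran from 3.77 to 22.5 CPM in SAL (median 7.08), from 6.75 to 19.1 in PNO (median 15.9) and from 3.94 to 7.05 in IUO (median 6.09). The 6 IUO pups lay in a narrow band, and 5 of them were below the lowest PNO pup, while the SAL range covered both. The log2 fold change of IUO against PNO was -1.27 (SE 0.36, unadjusted p = 0.00243, adjusted p = 0.127 in edgeR), a level 2.41-fold lower. Against SAL, the PNO pups had a log2 fold change of 0.52 (SE 0.35).

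Vamp1, the synaptobrevin of the same fast synapses, ran from 53.7 to 267 CPM in SAL (median 122), from 132 to 261 in PNO (median 168) and from 73.4 to 117 in IUO (median 96.6). All 6 IUO pups were below the lowest PNO pup. The share of all genes tested whose ranges part these groups is not given here, and 15.3% passed an unadjusted p of 0.05 in edgeR. The log2 fold change was -0.89 (SE 0.30, unadjusted p = 0.00745, adjusted p = 0.176 in edgeR), 1.86-fold lower. Its partner Vamp2, on which most other synapses rely, had a log2 fold change of 0.03 (SE 0.08) in the same comparison.

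Cplx1 ran from 343 to 464 CPM in SAL (median 418), from 405 to 532 in PNO (median 437) and from 325 to 415 in IUO (median 386). In IUO 5 of 6 pups fell below the lowest PNO pup. The change was small beside those of Syt2 and Vamp1, with a log2 fold change of -0.25 (SE 0.08, unadjusted p = 0.00834, adjusted p = 0.18 in edgeR). The estimate for Cplx2 had the other sign, 0.30 (SE 0.25, unadjusted p = 0.236 in edgeR), and neither gene passed the adjusted p.

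Of the genes that were higher in IUO, Syt6 ran from 26.6 to 61.3 CPM in SAL (median 52.9), from 19.1 to 62.9 in PNO (median 28.9) and from 40.6 to 83.2 in IUO (median 49.4). Its ranges overlapped, with 2 of 6 IUO pups above every PNO pup, and the log2 fold change was 0.72 (SE 0.29, unadjusted p = 0.0206, adjusted p = 0.245 in edgeR). Syt16 and Rims2 were higher than in PNO, with log2 fold changes of 0.27 (SE 0.11, unadjusted p = 0.0222) and 0.21 (SE 0.09, unadjusted p = 0.0275), and adjusted p = 0.251 and 0.271 in edgeR.

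**Figure D4:**
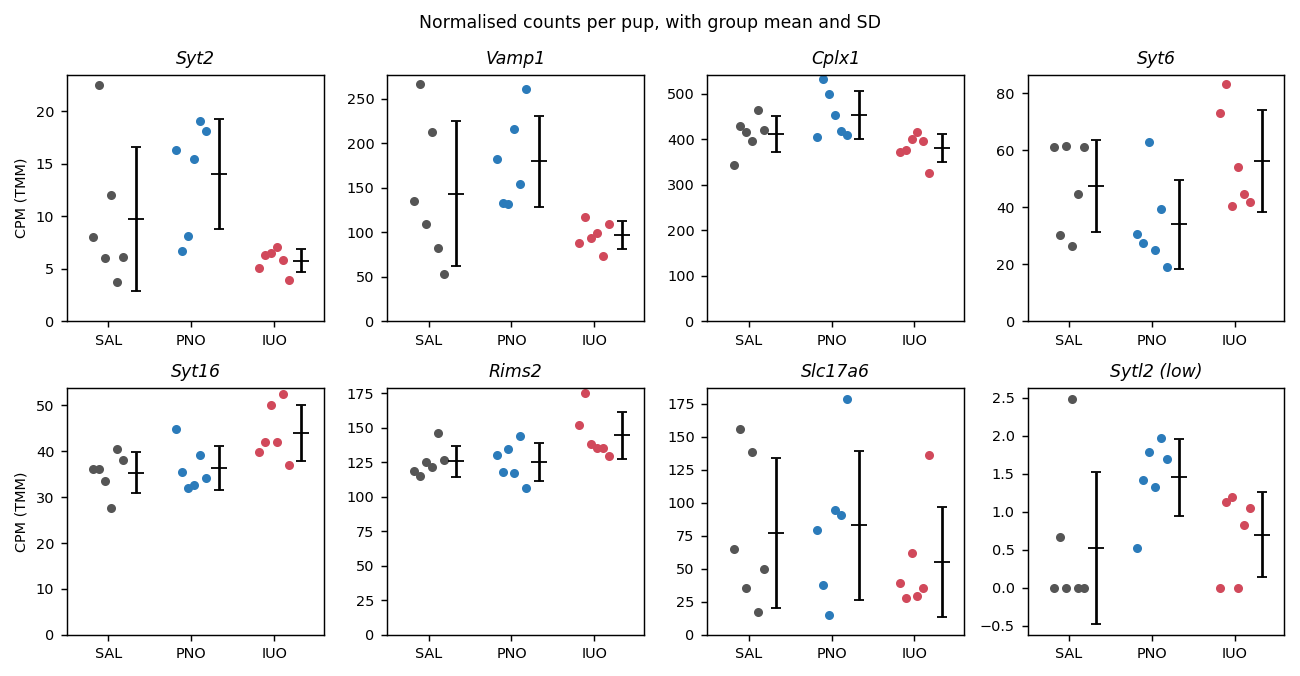
CPM of 8 members by group, with 1 point per pup and the group mean and SD at its right. The IUO points of Vamp1 all lie below the PNO points, at 73.4 to 117 against 132 to 261 CPM, while the SAL points span both. The share of all genes whose points part in this way is not given. For the second Sytl2 identifier (low), 4 SAL pups sit at or near 0.

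The calls in this comparison depended on the test. DESeq2 called Syt2 (adjusted p = 0.0234), with 2.78% of all genes tested called. edgeR on the 12 pups of the 2 groups alone called Syt2 (adjusted p = 0.0474) and Vamp1 (adjusted p = 0.044), with 0.469% of all genes called. limma-voom with sample quality weights called 6 members (11.8%), Syt2, Vamp1, Syt6, Syt16, Doc2b and the second Sytl2 identifier, beside 12.9% of all genes. edgeR on the 14 pups left without those of lowest mitochondrial share called 1 member, Doc2b (log2 fold change 0.72, SE 0.20, adjusted p = 0.0463), beside 8.38% of all genes. Over the 21 alternative settings the adjusted p of Syt2 ranged from 0.0234 to 0.252, that of Vamp1 from 0.0293 to 0.33, that of Cplx1 from 0.0533 to 0.341 and that of Syt6 from 0.0457 to 0.409. The sign of these 4 log2 fold changes held in all 21 settings.

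The stretches of 250 bases before the start of 5 of these genes are printed for genes with an unadjusted p under 0.05 between IUO and PNO, of which Syt2, Vamp1 and Cplx1 had negative and Syt6 and Syt16 positive log2 fold changes, none past the adjusted p in edgeR. They are RefSeq sequences of the GRCr8 build on the + strand, Syt2 at chr13:48736872-48737121, Vamp1 at chr4:159698644-159698893, Cplx1 at chr14:1328823-1329072, Syt6 at chr2:193781226-193781475 and Syt16 at chr6:98456332-98456581. RefSeq promoter sequences were matched for 39 of the 51 symbols. Capitals mark matches on either strand to GGGCGG (the GC box), TATAAA (the TATA box) and TGACG (the core of the cAMP response element), and the full element TGACGTCA overlaps the core.
Syt2: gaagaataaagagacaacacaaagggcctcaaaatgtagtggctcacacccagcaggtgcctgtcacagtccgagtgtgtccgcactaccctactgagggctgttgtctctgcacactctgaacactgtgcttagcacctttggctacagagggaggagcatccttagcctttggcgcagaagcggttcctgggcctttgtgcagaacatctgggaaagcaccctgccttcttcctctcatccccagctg
Vamp1: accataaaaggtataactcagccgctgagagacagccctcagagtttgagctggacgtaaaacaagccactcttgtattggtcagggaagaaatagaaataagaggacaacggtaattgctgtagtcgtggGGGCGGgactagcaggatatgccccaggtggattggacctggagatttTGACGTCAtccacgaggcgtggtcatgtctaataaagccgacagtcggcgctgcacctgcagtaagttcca
Cplx1: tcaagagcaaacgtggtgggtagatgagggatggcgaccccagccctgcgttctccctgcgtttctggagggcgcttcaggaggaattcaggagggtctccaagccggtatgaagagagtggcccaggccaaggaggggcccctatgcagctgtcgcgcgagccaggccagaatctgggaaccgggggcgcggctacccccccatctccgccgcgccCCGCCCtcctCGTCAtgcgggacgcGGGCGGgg
Syt6: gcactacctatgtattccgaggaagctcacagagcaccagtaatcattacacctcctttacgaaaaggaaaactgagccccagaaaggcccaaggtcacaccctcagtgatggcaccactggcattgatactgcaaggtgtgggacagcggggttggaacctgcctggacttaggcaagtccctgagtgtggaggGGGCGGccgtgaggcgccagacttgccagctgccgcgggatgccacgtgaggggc
Syt16: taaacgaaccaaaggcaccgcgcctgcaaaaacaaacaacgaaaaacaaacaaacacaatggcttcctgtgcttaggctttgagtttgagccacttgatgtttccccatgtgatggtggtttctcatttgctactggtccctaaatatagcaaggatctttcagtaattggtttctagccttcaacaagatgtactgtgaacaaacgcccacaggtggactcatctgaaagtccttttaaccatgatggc

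A GC box and the core element stood in the windows of both Vamp1 and Cplx1, and no match in that of Syt2. Vamp1 held 1 full TGACGTCA, starting 71 bases before the gene's start, and 1 GC box at 119 bases. Cplx1 held GC boxes at 33 and 8 bases and 1 core element at 23 bases, and its window was 68% G and C. Syt6 held a GC box at 55 bases, and its window was 58.4% G and C. Syt2 and Syt16 held none of these letters in the window, at 54.4% and 43.2% G and C beside a median of 52% over all promoters. Over the members matched, 23 of 39 (59.0%) held a GC box, 1 (2.56%) a TATA box, 9 (23.1%) the core element and 2, Vamp1 and Syn1, the full element. Among 27457 promoter windows of the same length the shares were 32.4%, 13.1%, 19.0% and 1.70%.

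Markers of other cells moved in the same comparison. Pvalb, the calcium buffer that marks fast-spiking interneurons, ran from 3.42 to 24.6 CPM in SAL (median 10.8), from 10.4 to 33.5 in PNO (median 21.5) and from 2.6 to 5.93 in IUO (median 4.71). It was called between IUO and PNO in edgeR, with a log2 fold change of -2.34 (SE 0.41, adjusted p = 0.0356), and lost that call in 11 of the 12 fits that left out 1 pup, all but the one without PNO 5. No other of the 6 interneuron markers passed an unadjusted p of 0.05, and their summed level was 600 to 920 CPM in SAL, 605 to 926 in PNO and 567.5 to 909 in IUO. All 7 myelin genes were lower in IUO than PNO at an unadjusted p of 0.05, and their summed level was 1721 to 9285 CPM in SAL, 2917 to 14745 in PNO and 2204 to 5619 in IUO. Of the 6 pan-neuronal markers, the neurofilament genes Nefl and Nefm had log2 fold changes of -0.36 and -0.42 (adjusted p = 0.132 and 0.166 in edgeR), and the other 4 were higher, none past an unadjusted p of 0.05. Of the 6 astrocyte markers 3 were lower at an unadjusted p of 0.05, Gfap (-0.36), Aldoc (-0.37) and Aqp4 (-0.29), and of the 8 cortical excitatory markers Bcl11b was higher (1.00, adjusted p = 0.155 in edgeR). The medians were 0.84 over the 8 striatal markers, all higher in IUO, and -1.26 over the 6 of choroid plexus, all lower, with none past an unadjusted p of 0.05. Of the 6 thalamic markers 4 were lower, and Gbx2 was higher (2.30, unadjusted p = 0.0366, adjusted p = 0.298 in edgeR). No marker of these lists other than Pvalb passed the adjusted p in edgeR. The part of these markers in the values of Syt2, Vamp1 and Cplx1 was not tested, and in bulk tissue fewer cells of a type and less RNA per cell cannot be told apart.

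Across the 18 pups, 6 relations between members and markers were computed on log2(CPM + 0.5). They are given as a description with no p, since members and markers were paired with earlier results known. Pvalb, Syt2, Vamp1 and Cplx1 all have their highest group mean in PNO and their lowest in IUO. The highest IUO pup had 5.93 CPM of Pvalb and the lowest PNO pup 10.4. A pooled r with Pvalb therefore carries this group difference, also without 2 pups. Syt2 and Pvalb had a pooled Pearson r of 0.60 and a Spearman rho of 0.65, and r was 0.69 without the 2 pups farthest from the median of Pvalb. Within the groups of 6, it was 0.62 in SAL, -0.84 in PNO and 0.59 in IUO, so the relation did not hold within PNO, where PNO 2 and PNO 3 had high Pvalb and low Syt2. Vamp1 gave r = 0.74 and rho = 0.70, r = 0.76 without 2 pups, and 0.86, -0.42 and 0.51 within SAL, PNO and IUO. The reversed sign inside PNO was thus seen for both genes.

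Cplx1 and Pvalb gave r = 0.66 and rho = 0.61, r = 0.61 without 2 pups, and 0.20 in SAL, 0.69 in PNO and 0.43 in IUO. On the deposited TPM scale its r was 0.25, and that of Syt2 was 0.55 with a rho of 0.45.

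Slc17a6 and the summed thalamic markers had r = 0.74 and rho = 0.71, and r = 0.66 without the 2 farthest pups. Inside the groups r was 0.80 in SAL, 0.81 in PNO and 0.74 in IUO, but the IUO value rests on IUO 6, without which it was -0.80 over the other 5 pups. With any 1 pup left out, a check chosen after seeing the data, it stayed between 0.70 and 0.96 in SAL and between 0.71 and 0.88 in PNO. None of the 3 comparisons of Slc17a6 passed the test, and its log2 fold change of IUO against PNO was -0.59 (SE 0.57). The 2 members set against striatal markers gave r = 0.13 and rho = 0.23 for Sv2c, and r = 0.24 and rho = 0.39 for Synpr. Without the 2 farthest pups r was 0.04 and -0.00193. For Sv2c the values inside SAL, PNO and IUO were 0.06, 0.25 and -0.79, and for Synpr 0.07, 0.20 and 0.86.

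**Figure D5:**
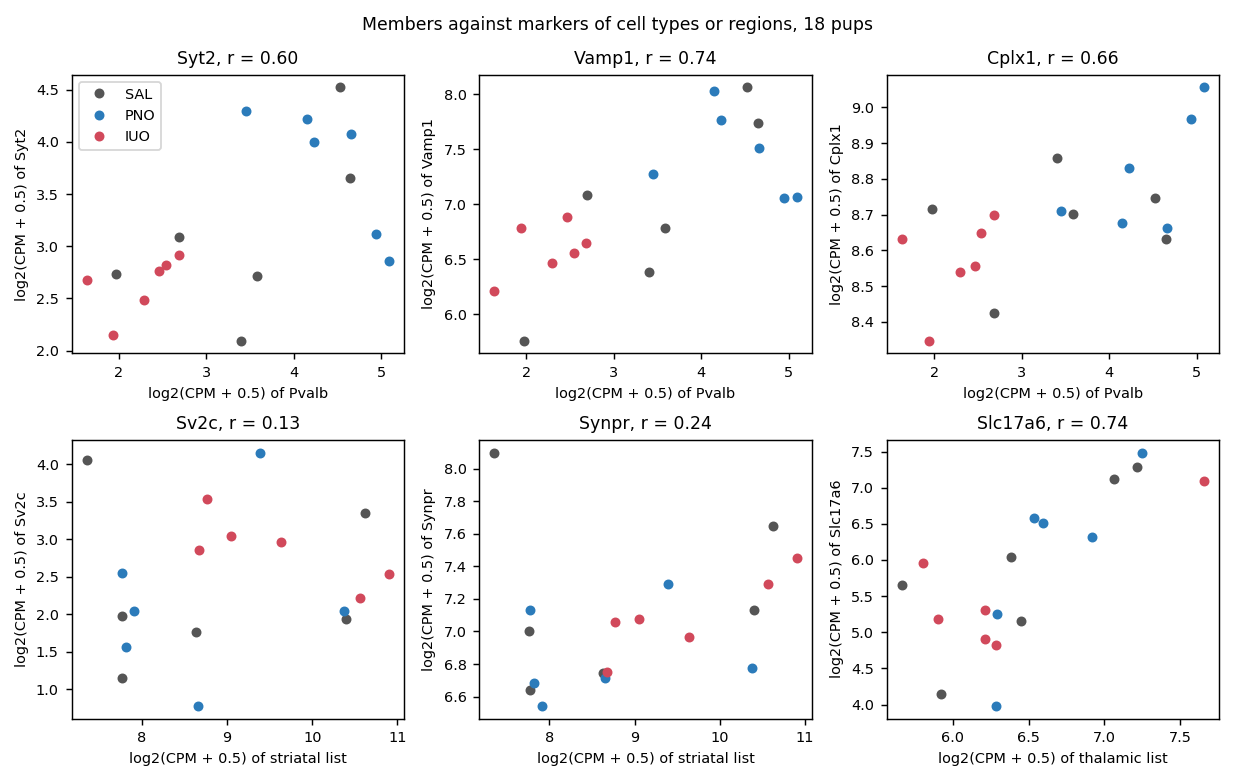
Each member against its marker in log2(CPM + 0.5), 1 point per pup, with Pearson r over 18 pups in the panel title. The Slc17a6 points rise with the thalamic list in SAL and PNO and in IUO only through IUO 6 (r = -0.80 without it), while the PNO points of Syt2 and Vamp1 run against the pooled slope (r = -0.84 and -0.42 within PNO).

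A second readout was the weighted transcript length of a gene, which moves when a pup uses its transcripts in other shares. It varied for 22 members, and 4291 genes were tested with limma. By adjusted p, 0 members were called in any comparison, where 0% of all genes tested were called in the first comparison, 0.0233% in the second and 0.0466% in the third. At an unadjusted p of 0.05 there was 1 member in each, where 3.85%, 3.92% and 6.27% of genes passed.

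Rims2, listed with 4 transcripts, was that member in the first and the third comparison. Its weighted length was 4927 to 5928 bases in SAL (median 5258), 5429 to 6197 in PNO (median 5766) and 5059 to 5308 in IUO (median 5182), so that every IUO pup was below every PNO pup. The share of all genes tested for length that part these groups is not given here. The log2 difference of IUO against PNO was -0.15 (SE 0.04, unadjusted p = 0.00215, adjusted p = 0.533 in limma), and that of PNO against SAL was 0.11 (SE 0.04, unadjusted p = 0.0146, adjusted p = 0.972 in limma). Cplx2 was the member between IUO and SAL, with a log2 difference of 0.02 (SE 0.00918, unadjusted p = 0.0237, adjusted p = 1 in limma). The Rims2 TPM values carry this length, since TPM divides by it.

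The other genes of the release pathway were read from a list of 60 further genes, among them the liprins, the CAPS genes and the endocytic genes, of which 59 were tested. None passed the adjusted p in edgeR in any comparison. By adjusted p DESeq2 called 2 of them between IUO and PNO (Rab3d and Napg), where 2.78% of all genes tested were called, and limma-voom 6, where 12.9% were, and both called 0 in the comparisons with SAL. At an unadjusted p of 0.05, 1 (1.69%) passed in the first comparison, 3 (5.08%) in the second and 8 (13.6%) in the third, beside 4.5%, 6.88% and 15.3% of all genes tested, and with limma-voom 9 (15.3%) did in the second and 22 (37.3%) in the third, where 17.3% and 34% of all genes passed. Rab3d, a GTPase of secretory granules and paralog of Rab3a, had the smallest p in both comparisons with IUO. Its log2 fold change was 0.41 against PNO (SE 0.09, unadjusted p = 0.000186, adjusted p = 0.0723 in edgeR) and 0.34 against SAL (SE 0.09, adjusted p = 0.335 in edgeR). Second were Napg, a SNAP adaptor, at -0.19 against PNO (SE 0.06, adjusted p = 0.137), and Rph3al at 0.50 against SAL (SE 0.20, adjusted p = 0.641). Between PNO and SAL the smallest p-values belonged to Bin1 at 0.17 (SE 0.08) and Napa at 0.19 (SE 0.10), both with adjusted p = 0.912 in edgeR.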

How the data were processed

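From total RNA the authors prepared libraries with the TruSeq V2 kit, pooled the 18 libraries and sequenced them on 1 flow cell. They deposited 1 table per pup with expected counts per gene, in which a read that fits several genes is divided between them. The deposited TPM values correct for gene length and sum to 1 total in every pup, and the deposited FPKM values correct for gene length and depth. The deposited weighted transcript length of each gene has no other normalization. The aligner, the counting program, the annotation and the genome build are not given in the sources used here.

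Expected counts (in each pup at least 90.1% of values exactly whole, with no tolerance) were rounded, and tests ran in edgeR 4.0.16 under R 4.3.3 (filterByExpr, TMM, glmQLFit and glmQLFTest, two-sided, 1 model over the 3 groups with 15 residual degrees of freedom), with Benjamini-Hochberg adjustment over the 15703 genes tested and a threshold of 0.05. CPM are TMM-normalized, and TPM served for levels between genes. Log2 weighted lengths were tested with limma 3.58.1. Relations are Pearson and Spearman coefficients from numpy 2.4.6 and scipy. Alternatives were DESeq2 1.42.0, limma-voom with sample quality weights, other size factors and filters, 12 pups, a replicate block and each pup left out. Tables and plots were made with Python 3.11.15, pandas 2.3.3, scipy 1.17.1 and matplotlib 3.10.9. The fits were tested on simulated data. No pair of pups in a group agreed within sampling noise (chi-square per degree of freedom at least 11.7).

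The members, their roles and the lists were chosen with earlier results of these data known. Values are printed for the member of highest TPM in each role, members with an unadjusted p under 0.05 in any comparison, both Sytl2 identifiers, the paralog series, members failing the filter, and the 2 other release genes of smallest p per comparison. Groups and numbers come from the sample titles. Same-numbered pups deviated together weakly (mean correlation 0.23, -0.03 and 0.06 for PNO with SAL, IUO with SAL and IUO with PNO), with 4, 1 and 3 of 6 above 0.1, so the numbers were not taken as pairs.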

Additional observations from a re-analysis of the deposited data

Results flagged for a closer look

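Of 156 sets of 6 pups (52 identifiers in 3 groups), 8 had a pup whose log2 CPM lay far from the other 5 relative to the range of the group, and chance alone marks about 1 in 20 such sets. SAL 6 was the lowest of its group for Cplx3, at 3.16 where the nearest pup had 4.72, and the highest for Syn3, at 4.41 where the nearest had 3.25. IUO 2 was the lowest of its group for Stx1a (8.09, nearest 8.62) and for Doc2a (5.61, nearest 5.9). SAL 5 had the highest Syp of its group (10.2, nearest 9.77) and PNO 2 the highest Rab3a (9.55, nearest 9.27). Among the rare genes, Sytl4 was lowest in IUO 4 (-1.55, nearest -0.555) and the second Sytl2 identifier lowest in PNO 1 (-0.697, nearest 0.497).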

How the results depend on the processing

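In the comparisons with SAL, 0 members passed the adjusted p under each of the alternatives run. Between IUO and PNO the 0 of edgeR became 1 with DESeq2, 6 with limma-voom, 2 on the 12 pups and, in an alternative chosen after seeing the data, 1 on the 14 pups without the lowest mitochondrial shares. Members at an unadjusted p under 0.05 went from 0 to 3 (limma-voom), 2 (replicate block) and 4 (14 pups) between PNO and SAL, from 2 to 5 (limma-voom) between IUO and SAL, and from 6 to 20 (limma-voom) and 15 (14 pups) between IUO and PNO. The share of all genes passing rose too, to 6.69% (limma-voom) and 11% (14 pups) in the first comparison, 17.3% (limma-voom) in the second, and 34.0% (limma-voom) and 29.4% (14 pups) in the third. With 1 pup left out they ranged from 0 to 4, from 1 to 6 and from 5 to 8, beside 2.52% to 8.99%, 5.14% to 8.77% and 11.4% to 21.4% of all genes, and the adjusted count stayed at 0. The cause of these shifts was not tested.

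With the replicate block, members at an unadjusted p under 0.05 were 2, 2 and 7 in the 3 comparisons (3.92%, 3.92% and 13.7%, beside 4.62%, 7.44% and 16.5% of all genes), the adjusted count stayed at 0, and over all genes 0, 0 and 6 were called. For transcript length the block took the genes called between IUO and PNO from 2 to 0, and the members called stayed at 0. The log2 fold change of the first Sytl2 identifier between IUO and SAL, -0.02 with all pups, ranged from -0.12 to 0.068 with 1 pup left out, and turned positive without SAL 2, SAL 4, IUO 4 or IUO 6. Pvalb lost its call in 11 of the 12 fits that left out 1 pup (log2 fold change -2.44 to -2.19). The relation of Cplx1 with Pvalb fell to r = 0.25 on TPM. The median log2 fold change of the members lay between -0.02 and 0.09 for PNO against SAL, between -0.02 and 0.13 for IUO against SAL and between -0.01 and 0.06 for IUO against PNO, so its sign was not stable. The 10 highest members were the same by FPKM, which within a pup differs from TPM only by a common scale factor, so this was no independent check. Depth limits the rarest members most, since Sytl3 had 3 to 15 counts per pup.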
